A study of Mus musculus with 22 samples.

Results

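Dorsal striatum of mice that had taken oxycodone was compared with dorsal striatum of yoked saline mice, gene by gene, in 10 bulk RNA libraries. The members are the 5 oxycodone and 5 saline libraries that the labels assign to this region, out of 22 libraries in the series; the other 12 are from ventral striatum. All mice were adult male C57BL/6J. Oxycodone mice worked for intravenous infusions of 0.25 mg/kg in sessions of 4 h per day over 14 days, and the yoked controls were infused with saline on the same schedule. The labels do not say which saline mouse was yoked to which oxycodone mouse, nor whether 2 libraries can come from 1 mouse, so p values measure only the spread between these libraries. Replicates are numbered in accession order and the numbers pair nothing.

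The dorsal striatum, or caudate putamen, is built mostly of medium spiny neurons that carry either the dopamine receptor Drd1 or Drd2, among astrocytes, oligodendrocytes, microglia and blood vessels. Oxycodone acts on the mu opioid receptor, encoded by Oprm1, which is present on many of these neurons. Interferons and other cytokines act on glia, endothelium and leukocytes through STAT and IRF transcription factors, and their target genes include guanylate-binding proteins, immunity-related GTPases and the parts of the antigen-presentation machinery. Whole tissue holds all of these cells, so in these libraries more cells of a type and more RNA per cell cannot be told apart.

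Library totals ran from 11314079 to 21921963 counts, and 15622 to 16817 genes had a count in a library. Totals (exact permutation test, two-sided, p = 0.77), genes detected (exact p = 0.984) and the share of mitochondrial counts (exact p = 0.381) gave no call between treatments at n = 5 and 5, where the smallest possible p is 0.00794. The medium spiny neuron markers were present in every library: the 10 listed genes summed to between 8258 and 9299 CPM, counts relative to the library total, in all 10 libraries. Markers of choroid plexus and ependyma, which border the striatum, varied widely within both groups: their sum ran from 98.9 to 3342 CPM in oxycodone libraries and from 399.5 to 3628 CPM in saline libraries. Oxycodone replicate 5 was the highest library for most of the genes described here, by a wide margin for some and a narrow one for others, and the called genes and main lists are given with and without it. Within each group 1 pair of libraries shares a title number, and whether such a pair comes from 1 mouse is not stated. With those pairs summed 40 genes passed, 24 of them among the 30 described next.

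Of 14595 genes tested, 30 (0.206%) differed between oxycodone and saline at an adjusted p under 0.05 (edgeR quasi-likelihood test with Benjamini-Hochberg adjustment). Expression was higher after oxycodone for 29 of them (0.199% of all genes tested) and lower for 1 (0.00685%). Of the 30, 20 are on at least 1 of the gene lists and 10 on none; they are described below in an order chosen after their values were seen, and 1 is a gene model with no established name. The fold change was at least 2 for 18 of them, at least 4 for 6 and under 1.5 for 5. The 2 treatments did not overlap for 23 of the 29, and for the other 6, 4 of the 5 oxycodone libraries exceeded the highest saline library. Over all genes tested, complete separation upward was seen for 123 genes (0.843%) and downward for 65 (0.445%). The median log2 change over all genes was -0.01, with 47.9% of genes above 0. At an unadjusted p under 0.05 there were 474 higher genes (3.25%) and 349 lower genes (2.39%).

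**Figure D1:**
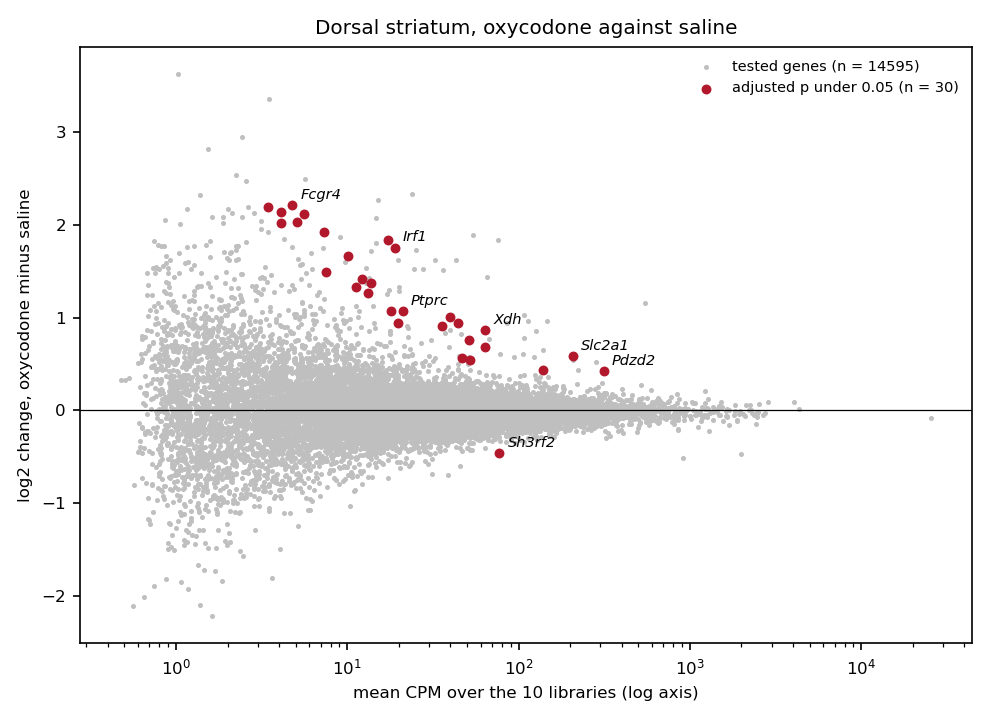
Log2 change, oxycodone minus saline, against the mean CPM over the 10 dorsal libraries on a log axis, 1 point per tested gene (n = 14595). The 30 genes past the adjusted threshold (red) span low to high expression, and Sh3rf2 is the 1 red point below 0.

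Oxycodone replicate 5 was the highest library for 27 of the 29 higher genes, and replicate 2 for the other 2, Ehd1 and Gpr83. Without replicate 5, 14 genes passed the threshold in place of 30, and 7 of these were among the 30: Xdh, Cp, Tgm2, Slc2a1, Irf1, Tgtp1 and Ly6a. Without saline replicate 5, which was the lowest library for 10 of the 29, 1 gene passed. All 30 genes kept the sign of their change when each library in turn was left out, but only Xdh passed the threshold in all 10 of those fits.

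**Figure D2:**
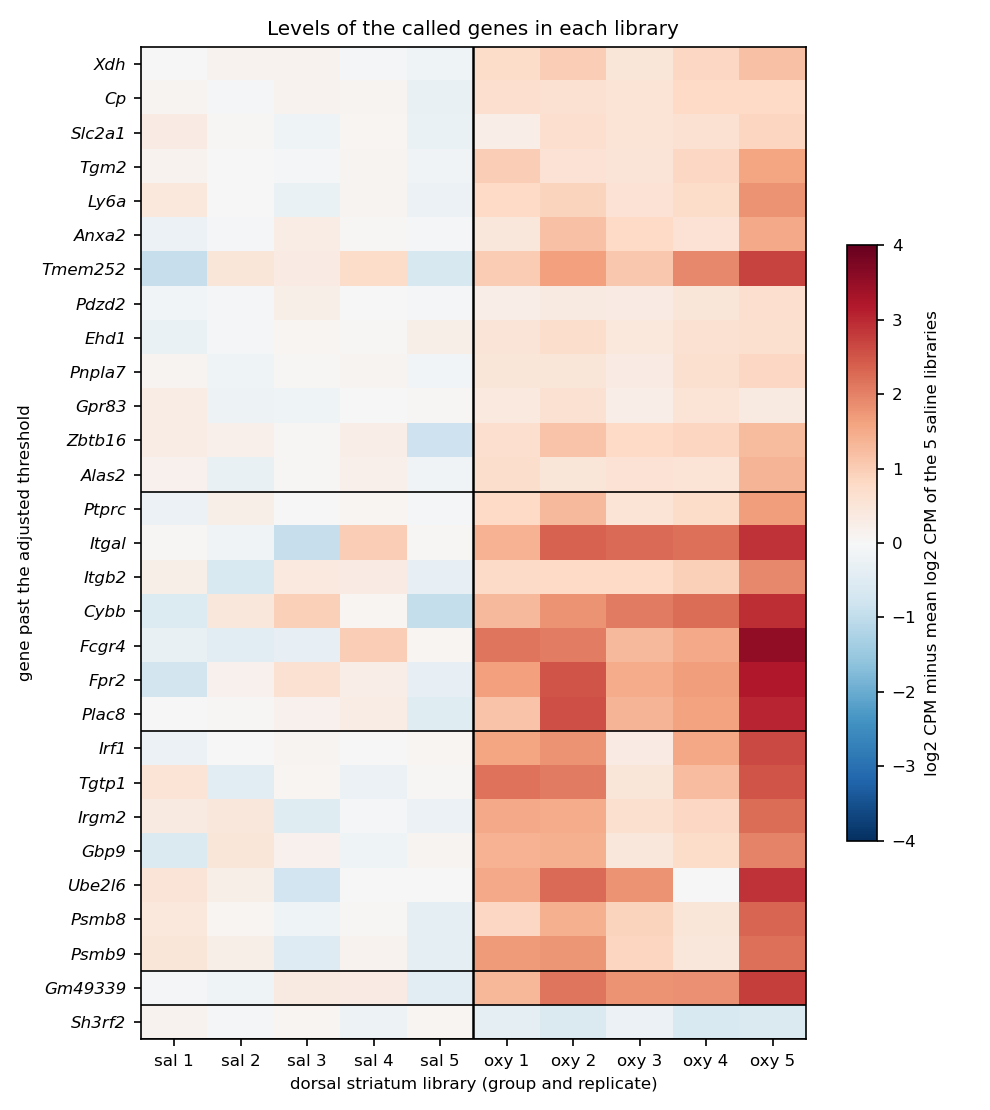
Log2 CPM of 29 of the 30 called genes in each dorsal library, minus the mean of the 5 saline libraries (colour; red above, blue below). Saline columns are near 0, oxycodone columns are red for the higher genes, and oxycodone replicate 5 is the most intense column for most of them.

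The interferon-induced list of 42 genes had 38 tested members, of which 37 had a change above 0 and 4 passed the test upward: Irf1, Irgm2, Tgtp1 and Ube2l6. The median log2 change of the list was 0.85 against -0.01 over all genes tested, and it was 0.49 without oxycodone replicate 5. Irf1, a transcription factor that responds to interferon-gamma, was at 25.8, 30.1, 10.8, 25.1 and 54.1 CPM in oxycodone libraries 1 to 5 and at 7.38, 8.54, 9.37, 8.77 and 9.04 CPM in saline libraries 1 to 5. The saline libraries were close together and the groups did not overlap, although oxycodone replicate 3 was just above the highest saline library. Irf1 rose by 1.75 ± 0.29 on the log2 scale (SE, adjusted p = 0.0162, edgeR), and by 1.41 (adjusted p = 0.00592) without replicate 5. It passed in 4 of the 10 fits that left out 1 library, and not with limma-voom (adjusted p = 0.630) or with the haemoglobin level as a covariate (adjusted p = 0.421).

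Tgtp1, an immunity-related GTPase also known as a T-cell specific GTPase, was at 33.7, 31.5, 10.4, 17.4 and 42.8 CPM with oxycodone and at 10.8, 5.46, 7.78, 6.4 and 7.77 CPM with saline. Oxycodone replicate 3 was below the highest saline library, so the groups overlapped there. Its log2 change was 1.83 ± 0.31 (SE, adjusted p = 0.0162, edgeR), and 1.61 (adjusted p = 0.00841) without replicate 5; it passed in 5 of the 10 fits that left out 1 library, and not with limma-voom (adjusted p = 0.539). Reads of Tgtp1 are uncertain because its near-identical copy Tgtp2 can share them; Tgtp2 had a log2 change of 1.81 with an adjusted p of 0.0654. Irgm2, another GTPase of this family that acts on vacuoles holding pathogens, was at 18.6, 18.1, 10.1, 11.5 and 30.8 CPM against 8.36, 8.89, 4.61, 6.21 and 5.48 CPM. The groups did not overlap, and the log2 change was 1.42 ± 0.27 (SE, adjusted p = 0.0162, edgeR), though its exons overlap those of Igtp on the same strand.

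Of the other interferon-related members, Ube2l6, the conjugating enzyme for the ubiquitin-like protein ISG15, had 1.92 ± 0.38 on the log2 scale (SE, adjusted p = 0.0209, edgeR), with oxycodone replicate 4 at 2.94 CPM, inside the saline range of 1.73 to 4.18 CPM. Gbp9, a guanylate-binding protein, rose by 1.26 ± 0.26 (SE, adjusted p = 0.0246, edgeR), and its exons overlap those of Gbp4 and Gbp8. Without oxycodone replicate 5 none of Irgm2 (adjusted p = 0.142), Ube2l6 (0.1565) and Gbp9 (0.200, edgeR) passed. Irgm1 missed the threshold (log2 change 1.53, adjusted p = 0.0644, edgeR) with all 5 oxycodone libraries above all 5 saline libraries. Cxcl10, a chemokine induced by interferon, was at a mean of 4.33 CPM with oxycodone and 0.765 CPM with saline (log2 change 2.47 ± 1.52, SE, adjusted p = 0.983).

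RefSeq promoters of 19 of the 29 higher genes were searched for 5 motifs on both strands, in windows of 250 bases before to 50 after the start. The gamma-activated sequence, an element of interferon-gamma responses written TTCNNNGAA, was present in 5 of the 19 genes (Fpr2, Irf1, Irgm2, Psmb8 and Tgtp1) and in 8.14% of the 11229 tested genes with a promoter in the table. The interferon-stimulated response element, searched as GAAA and GAAA with any 2 bases between them, was present in 4 of the 19 (Cybb, Fcgr4, Irgm2 and Tgtp1) and in 3.69% of all these genes. Irgm2 and Tgtp1 held both, as did 49 of 14397 single promoters (0.340%), where a gene can have several. The NF-kB motif, GGG and TTCC with any 3 bases between them, was in none of the 19 and in 7.05% of all genes, PU.1 AGGAAGT in 3 and 10.07%, and the glucocorticoid motif ACANNNTGT in 1, Tmem252, and 5.31%. These are matches of letters and were not tested as binding sites. The windows below run from 130 to 11 bases before the start on the gene's own strand, in GRCm38.p6, and show where the letters of the 2 interferon motifs lie in 4 of the 7 genes with a match to either. Capitals mark a match to either motif. Irf1 (chr11:53769884-53770003, plus strand) and Psmb8 (chr17:34198065-34198184, plus strand) hold the gamma-activated sequence alone, and Tgtp1 (chr11:48992257-48992376, minus strand) and Irgm2 (chr11:58214847-58214966, plus strand) hold it beside the response element.
Irf1: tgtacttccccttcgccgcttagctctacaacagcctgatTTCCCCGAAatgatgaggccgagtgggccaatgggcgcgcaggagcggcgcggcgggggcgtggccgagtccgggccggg
Psmb8: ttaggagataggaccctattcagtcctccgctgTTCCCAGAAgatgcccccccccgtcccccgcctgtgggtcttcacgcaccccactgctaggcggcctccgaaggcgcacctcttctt
Tgtp1: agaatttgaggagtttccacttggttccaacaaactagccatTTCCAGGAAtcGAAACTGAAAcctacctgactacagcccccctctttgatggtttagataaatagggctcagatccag
Irgm2: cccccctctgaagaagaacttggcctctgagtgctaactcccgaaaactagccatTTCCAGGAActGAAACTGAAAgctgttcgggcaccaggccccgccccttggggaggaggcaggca

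All 18 listed class I and immunoproteasome genes had a change above 0, with a median log2 change of 0.91 (0.58 without oxycodone replicate 5), and 2 passed the test: Psmb8 and Psmb9. Both encode catalytic subunits that replace their constitutive counterparts in the immunoproteasome, and they lie 9957 bases apart on chromosome 17. Psmb8 was at 11.3, 16.9, 11.6, 8.91 and 31.3 CPM with oxycodone and at 8.36, 6.69, 5.62, 6.44 and 4.92 CPM with saline. The groups were separate by a narrow margin, and the log2 change was 1.33 ± 0.29 (SE, adjusted p = 0.0391, edgeR). Psmb9 rose by 1.49 ± 0.32 (SE, adjusted p = 0.0391, edgeR), with oxycodone replicate 4 at 5.24 CPM just below the highest saline library at 5.33 CPM; its exons overlap those of Tap1 on the other strand. Neither passed without oxycodone replicate 5 (adjusted p = 0.407 for Psmb8 and 0.279 for Psmb9, edgeR). In the class II list, 6 of 7 genes were above 0 and none passed, and the median log2 change of 1.33 was 0.34 without replicate 5. Cd74, the invariant chain of class II, was at 64.8 ± 72.3 CPM with oxycodone and 21.1 ± 8.35 CPM with saline (SD, n = 5 each).

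Genes of leukocytes and phagocytes made up the next group. The pan-leukocyte list had all 12 members above 0, with a median log2 change of 0.66 (0.50 without oxycodone replicate 5), and 3 passed the test: Ptprc, Itgal and Itgb2. Ptprc, which encodes the leukocyte common antigen CD45, was at 23.7, 33.5, 19.8, 22.3 and 43.1 CPM with oxycodone and at 11.4, 15.9, 13.3, 14.1 and 13.2 CPM with saline. The groups did not overlap, and the log2 change was 1.07 ± 0.20 (SE, adjusted p = 0.0150, edgeR). Itgal and Itgb2 encode the 2 chains of the adhesion receptor LFA-1. Itgal was at 3.56, 6.97, 6.62, 6.25 and 10.1 CPM against 1.42, 1.23, 0.721, 2.70 and 1.41 CPM. Every oxycodone library was above every saline library, with a log2 change of 2.14 ± 0.42 (SE, adjusted p = 0.0162, edgeR). Itgb2 rose by 1.07 ± 0.23 (SE, adjusted p = 0.0439, edgeR). Without oxycodone replicate 5 none of the 3 passed (adjusted p = 0.0849 for Ptprc, 0.128 for Itgal and 0.323 for Itgb2, edgeR).

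Among phagocyte receptors and effectors all 17 listed genes were above 0 (median log2 change 0.83, and 0.47 without oxycodone replicate 5), and Cybb, Fcgr4 and Fpr2 passed. Cybb, the membrane subunit of the phagocyte NADPH oxidase, was at 4.46, 6.28, 7.70, 8.47 and 14.0 CPM with oxycodone and at 1.25, 2.47, 3.46, 1.92 and 0.936 CPM with saline. The groups did not overlap (log2 change 2.03 ± 0.40, SE, adjusted p = 0.0162, edgeR). Fcgr4, a receptor for the Fc part of IgG, rose by 2.21 ± 0.43 (SE, adjusted p = 0.0162, edgeR), from 1.65 ± 0.785 to 7.83 ± 5.76 CPM (SD, n = 5 each). Fpr2, a receptor for formyl peptides, had 2.19 ± 0.46 (SE, adjusted p = 0.0340, edgeR). Without oxycodone replicate 5 the adjusted p was 0.156 for Cybb, 0.295 for Fcgr4 and 0.374 for Fpr2 (edgeR). The complement receptor C5ar1, at 0.142 ± 0.180 CPM with saline and 1.91 ± 0.567 CPM with oxycodone (SD, n = 5 each), separated completely but had an adjusted p of 0.0654.

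Markers of single leukocyte types varied in level and direction. Plac8, listed for monocytes, was at 4.57, 12.2, 5.25, 6.25 and 17.1 CPM with oxycodone and at 2.04, 2.11, 2.31, 2.51 and 1.45 CPM with saline, with no overlap. Its log2 change was 2.12 ± 0.38 (SE, adjusted p = 0.0150, edgeR), and 1.76 (adjusted p = 0.0979) without oxycodone replicate 5. Of the 6 tested monocyte genes 4 were above 0 and 2 below, with a median of 1.85 (1.34 without replicate 5). Their mean log2 CPM was above every saline library in all 5 oxycodone libraries. Treml4 separated upward but did not pass (log2 change 2.13, adjusted p = 0.183, edgeR). Ccr2, the first marker listed, was lower, at 0.676 against 1.67 CPM (log2 change -1.31, adjusted p = 0.9745, edgeR). The list sum ran from 69.7 to 175 CPM with oxycodone and from 90.8 to 166 CPM with saline. Plac8, Treml4, Spn and Ccr2 made up a minor part of it in every library. The sum therefore mainly reads other listed members and does not measure the genes that rose. None of the 8 tested neutrophil genes passed (list sum 18.1 to 42.3 CPM against 12.4 to 27.2 CPM, smallest adjusted p = 0.407, 1 at an unadjusted p under 0.05), and S100a8 was at 3.01, 1.96, 1.87, 3.81 and 4.46 CPM against 0.533, 0.352, 2.31, 0.274 and 0.281 CPM. Of the 14 T and NK cell genes, the defining markers Cd3e and Cd3d had no count in any of the 10 libraries. Cd4 and Lck, 2 of the 14, were abundant enough to test. The list sum was 48.9 to 63.1 CPM with oxycodone and 49.1 to 67.7 CPM with saline. Most of that sum was Cd4, at 49.7 ± 2.73 CPM with oxycodone and 54.0 ± 8.00 CPM with saline (SD, n = 5 each). The sum is therefore mainly a reading of Cd4 and not of T cells. Of the 8 B cell genes, Ms4a1 had no count and Ighm alone was tested, with a list sum of 9.92 to 14.6 CPM against 13.6 to 28.3 CPM. A count of 0 in a library allows up to 3 counts, or 0.137 to 0.265 CPM depending on its total, for counting error only.

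The 15 microglia genes had a median log2 change of 0.14 (0.05 without oxycodone replicate 5), with 9 above 0, 1 separated upward and none past the test (edgeR; smallest adjusted p = 0.413, 2 at an unadjusted p under 0.05). P2ry12, a purinergic receptor of resting microglia, was at 25.0, 29.9, 41.7, 31.3 and 31.2 CPM with oxycodone and at 35.2, 37.2, 37.4, 42.2 and 39.5 CPM with saline. Csf1r, the receptor for the growth factor that sustains microglia and macrophages, was above saline in all 5 oxycodone libraries (188, 189.7, 186, 184 and 236 CPM against 171, 173, 166, 156 and 164 CPM), with a log2 change of 0.25 ± 0.08 (SE, adjusted p = 0.413, edgeR). Border macrophage genes were split, with 4 of 8 above 0, 4 below and a median of 0.01 (-0.22 without oxycodone replicate 5). Their log2 changes ran from -1.185 to 0.96, with none past the test and 2 at an unadjusted p under 0.05 (edgeR). Mrc1 was above saline in all 5 oxycodone libraries (log2 change 0.73, adjusted p = 0.2795, edgeR). F13a1 had 0.96 (adjusted p = 0.560) and Cd163 -0.29 (adjusted p = 0.880, edgeR).

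Hbb-bs, a beta globin, was at 883, 659.9, 587, 409 and 1212 CPM with oxycodone and at 445, 317, 258, 322 and 346 CPM with saline. One oxycodone library overlapped the saline range, and the log2 change was 1.15 ± 0.29 (SE, adjusted p = 0.402, edgeR). Alas2, the erythroid enzyme that starts haem synthesis, passed the test: it was at 61.3, 52.5, 56.2, 54.9 and 97.9 CPM against 43.0, 31.1, 39.4, 43.1 and 34.1 CPM (log2 change 0.76 ± 0.15, SE, adjusted p = 0.0197, edgeR), and its exons overlap those of Apex2 on the other strand. Without oxycodone replicate 5 it did not pass (adjusted p = 0.121, edgeR). The summed red cell list ran from 653 to 1864 CPM with oxycodone and from 455 to 702 CPM with saline. Oxycodone replicate 5 had the highest level of the red cell, pan-leukocyte and interferon-induced lists. A level is the mean log2 CPM of the tested members minus the mean of the saline libraries. In oxycodone replicates 1 to 4 the levels were 0.99, 0.09, 0.56 and 0.36 for red cells. They were 0.60, 0.72, 0.67 and 0.83 for pan-leukocyte genes and 0.97, 0.86, 0.16 and 0.49 for interferon-induced genes. The part of red cells in the leukocyte and interferon results was not tested. With the haemoglobin level of each library as a covariate, a fit added after seeing the data, 2 genes passed, both lower with oxycodone and neither among the 30. In that fit the median log2 change was 0.27 for the interferon-induced list and 0.54 for the pan-leukocyte list. Other lists kept more or less of their change. The median was 0.69 for the STAT3 and acute phase list and 0.13 for reactive astrocytes. It was 0.08 for the glucocorticoid-responsive list and 0.0027 for MHC class II.

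**Figure D3:**
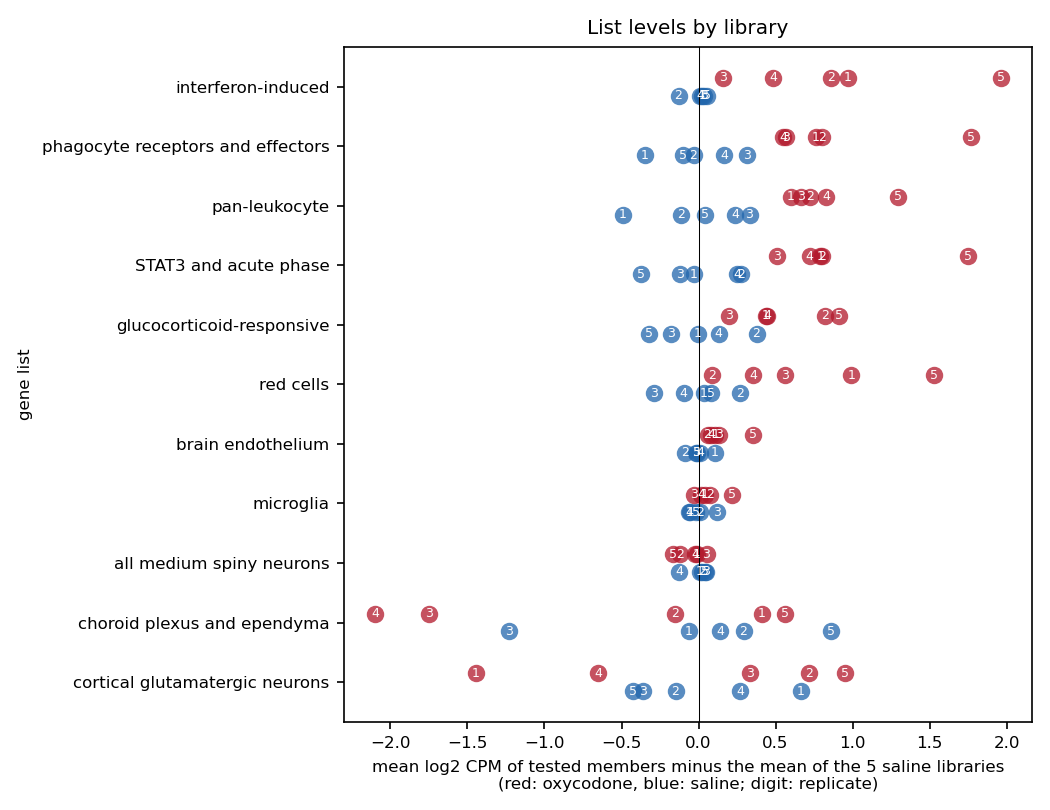
Mean log2 CPM of the tested members of 11 lists in each dorsal library, minus the mean of the 5 saline libraries (red: oxycodone, blue: saline, digits: replicate). Oxycodone replicate 5 is at 1.96 for the interferon-induced list, above the other 4 oxycodone libraries at 0.16 to 0.97, while the medium spiny neuron and microglia lists stay near 0.

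Among genes of vessels, barrier and metabolism, Cp and Tgm2 passed in 9 of the 10 fits that left out 1 library, and Xdh in all 10. Xdh, xanthine oxidoreductase, which makes uric acid at the end of purine breakdown, was at 75.04, 89.8, 63.7, 81.3 and 103 CPM with oxycodone and at 44.8, 49.6, 49.6, 42.9 and 40.4 CPM with saline. The lowest oxycodone library was well above the highest saline library. It rose by 0.86 ± 0.12 on the log2 scale (SE, adjusted p = 0.000593, edgeR), and by 0.77 (adjusted p = 0.00315) without oxycodone replicate 5. In the purine breakdown and salvage list, Xdh included, 4 of 10 tested genes were above 0, with a median of -0.01.

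Cp encodes ceruloplasmin, a copper-carrying ferroxidase. Its level was 78.0, 74.4, 70.7, 83.8 and 85.3 CPM with oxycodone and 52.4, 47.4, 53.5, 52.1 and 39.4 CPM with saline. Both groups were tight and separate, with a log2 change of 0.68 ± 0.11 (SE, adjusted p = 0.00502, edgeR; 0.0105 without replicate 5), although its exons overlap those of Hps3 on the other strand. Cp was the 1 called gene of the STAT3 and acute phase list, where 16 of 17 tested members were above 0 and the median log2 change was 1.04 (0.81 without replicate 5). Lcn2, an iron-siderophore binding protein of that list, was at 26.9, 33.0, 32.4, 38.4 and 62.6 CPM against 8.27, 9.86, 16.1, 19.4 and 4.40 CPM. It separated fully but had an adjusted p of 0.269 (edgeR).

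Tgm2, a protein cross-linking transglutaminase, was at 59.5, 44.9, 43.0, 54.1 and 90.4 CPM with oxycodone and at 33.6, 29.9, 28.5, 32.3 and 27.2 CPM with saline. The groups did not overlap, and it rose by 0.95 ± 0.16 (SE, adjusted p = 0.0101, edgeR; 0.0200 without replicate 5), although its exons overlap those of Rprd1b on the other strand. Slc2a1, the glucose transporter GLUT1 of the blood-brain barrier, was at 198, 261, 238, 249 and 296 CPM against 204, 171, 146, 173 and 135 CPM. Oxycodone replicate 1 fell within the saline range, and the log2 change was 0.58 ± 0.10 (SE, adjusted p = 0.0162, edgeR; 0.0280 without replicate 5, and 0.0833 with the pairs of shared title number summed). Ly6a, present on mouse endothelium, rose by 1.01 ± 0.20 (SE, adjusted p = 0.0431, edgeR; 0.0487 without replicate 5, and 0.217 with those pairs summed), from 26.5 ± 5.38 to 53.4 ± 20.97 CPM (SD, n = 5 each). In the endothelial list 13 of 21 members were above 0 and 8 below, and the median was 0.16 (0.07 without replicate 5). The unadjusted p was under 0.05 for 6 members (edgeR). Ly6c1 had a log2 change of 0.61 (adjusted p = 0.2895), Pecam1 0.45 (0.407) and Cdh5 -0.14 (0.998, edgeR). Cldn5, a tight junction gene, was at 21.99 CPM with oxycodone and 22.03 CPM with saline. The list sum, Slc2a1 and Ly6a included, ran from 1425 to 1924 CPM with oxycodone and from 1234.5 to 1323 CPM with saline. Anxa2, a membrane-binding annexin, had 0.95 ± 0.20 and Tmem252 1.67 ± 0.33 (SE, adjusted p = 0.0246 for each, edgeR), and neither passed without replicate 5 (0.208 and 0.1565).

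Zbtb16, a transcription factor induced by glucocorticoids, was at 38.3, 52.7, 40.9, 43.5 and 56.8 CPM with oxycodone and at 29.3, 27.6, 24.7, 28.5 and 13.4 CPM with saline, with no overlap. It rose by 0.91 ± 0.17 (SE, adjusted p = 0.0162, edgeR; 0.0694 without oxycodone replicate 5). It was the 1 called gene of the glucocorticoid-responsive list, in which 20 of 21 members were above 0 with a median log2 change of 0.50 (0.34 without replicate 5). Fkbp5, the classical member of that list, was at 41.0 ± 8.61 CPM with oxycodone and 32.9 ± 7.28 CPM with saline (SD, n = 5 each; log2 change 0.32, adjusted p = 0.883).

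Changes of smaller size but full or nearly full separation were found in 4 other genes. Pdzd2, a PDZ domain protein, was at 324, 341, 338, 372 and 427 CPM against 250.1, 260.2, 312, 268 and 251.5 CPM, a log2 change of 0.43 ± 0.08 (SE, adjusted p = 0.0162, edgeR). Ehd1, of the endocytic recycling pathway, had 0.57 ± 0.12 (adjusted p = 0.0359, edgeR) and Pnpla7, a lysophospholipase, 0.55 ± 0.12 (adjusted p = 0.0378, edgeR). Gpr83, a G protein-coupled receptor of striatal neurons, was at 155, 179.9, 142, 172 and 152 CPM against 145, 103, 105, 117 and 122 CPM, with 1 oxycodone library inside the saline range (log2 change 0.44 ± 0.09, SE, adjusted p = 0.0378, edgeR). Without oxycodone replicate 5 none of the 4 passed (adjusted p = 0.0752 for Pdzd2, 0.132 for Ehd1, 0.227 for Pnpla7 and 0.0708 for Gpr83, edgeR).

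The 1 gene that fell was Sh3rf2, which encodes a RING and SH3 domain protein and lies on chromosome 18. Its level was 69.1, 60.2, 76.2, 59.2 and 60.4 CPM with oxycodone and 98.0, 85.9, 93.7, 77.1 and 93.6 CPM with saline. All oxycodone libraries lay below all saline libraries, with oxycodone replicate 3 just under saline replicate 4. The log2 change was -0.46 ± 0.10 (SE, adjusted p = 0.0475, edgeR), and -0.44 (adjusted p = 0.178) without oxycodone replicate 5. Of the genes next in order downward, Frmd3 was at 8.86, 7.84, 7.91, 9.84 and 9.84 CPM against 14.8, 18.6, 14.7, 11.8 and 16.9 CPM (adjusted p = 0.163), and Htr1f, a serotonin receptor, had an adjusted p of 0.176 (edgeR). Atf4, a transcription factor of the integrated stress response, was at 89.1 ± 2.74 CPM with oxycodone and 108 ± 3.77 CPM with saline (SD, n = 5 each), completely separate, with a log2 change of -0.28 and an adjusted p of 0.326. It is on the unfolded protein response list, where most members went the other way. There 13 of 15 were above 0 and 2 below, the median log2 change was 0.11 and none was called.

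Drd1 was at 496, 451, 539, 526 and 502 CPM with oxycodone and at 499.7, 432, 476, 530.4 and 510.1 CPM with saline, and the groups overlapped. Drd2 was at 131, 129, 168, 146 and 154 CPM against 153, 173, 168, 152 and 164 CPM, a log2 change of -0.15 ± 0.09 (SE, adjusted p = 0.944, edgeR). The lists for D1 neurons (7 genes, median -0.12), D2 neurons (5 tested, median -0.12) and all medium spiny neurons (10 genes, median -0.04) had no called member. Opioid receptors and peptides had 7 tested members, none called by edgeR (0 at an unadjusted p under 0.05; median log2 change 0.09). Oprm1 was at 11.6, 16.3, 19.3, 15.1 and 15.3 CPM with oxycodone and at 21.2, 12.6, 19.7, 23.4 and 18.4 CPM with saline; its log2 change was -0.30 ± 0.19 (SE, adjusted p = 0.983, edgeR). Penk, the enkephalin precursor, was at 1427 ± 173 CPM against 1448 ± 147 CPM, and Pdyn, the dynorphin precursor, at 71.8 ± 3.72 CPM against 70.7 ± 10.4 CPM (SD, n = 5 each). Among the 12 immediate early genes, which neurons induce within minutes of activity, the median was 0.08 and none was called, with Fos at 9.65 ± 2.55 CPM against 7.89 ± 4.32 CPM.

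The other inflammatory lists were also mostly above 0 with few or no calls, but they share genes with each other and with the lists above. Itgal, Itgb2 and Itgam are on both the leukocyte adhesion and pan-leukocyte lists. Icam1, Vcam1, Sele and Selp are on both the adhesion and NF-kB lists. The lists are therefore not independent of one another. Complement had 10 of 11 above 0 (median 0.54, and 0.23 without oxycodone replicate 5) and NF-kB targets 14 of 16 (0.75, and 0.45 without it), with no member called. Leukocyte adhesion had 10 of 10 (0.75, and 0.52 without it), with Itgal and Itgb2 called. Il1b, a cytokine of macrophages and microglia, was at a mean of 4.32 CPM with oxycodone, where replicate 5 alone was at 13.2 CPM, and at 0.526 CPM with saline (adjusted p = 0.0913, edgeR).

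Astrocyte (median 0.06), oligodendrocyte (-0.04) and oligodendrocyte precursor (0.02) markers were close to the median of all genes. Of the 19 genes linked to reactive astrocytes 17 were above 0, with a median of 0.87, and that median was 0.29 without oxycodone replicate 5. The 1 member called was Psmb8, which is counted above with antigen processing. Many other members are shared too. Lcn2, Serpina3n, Timp1, Steap4 and Osmr are also on the STAT3 list, and Cxcl10 and Gbp2 on the interferon-induced list. H2-D1 is also on the class I list and Serping1 on the complement list. The median is therefore not a separate reading of astrocytes. All 13 genes of the mitochondrial genome were below 0 (median -0.20), and none passed (smallest adjusted p = 0.907, edgeR; 0 at an unadjusted p under 0.05).

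**Figure D4:**
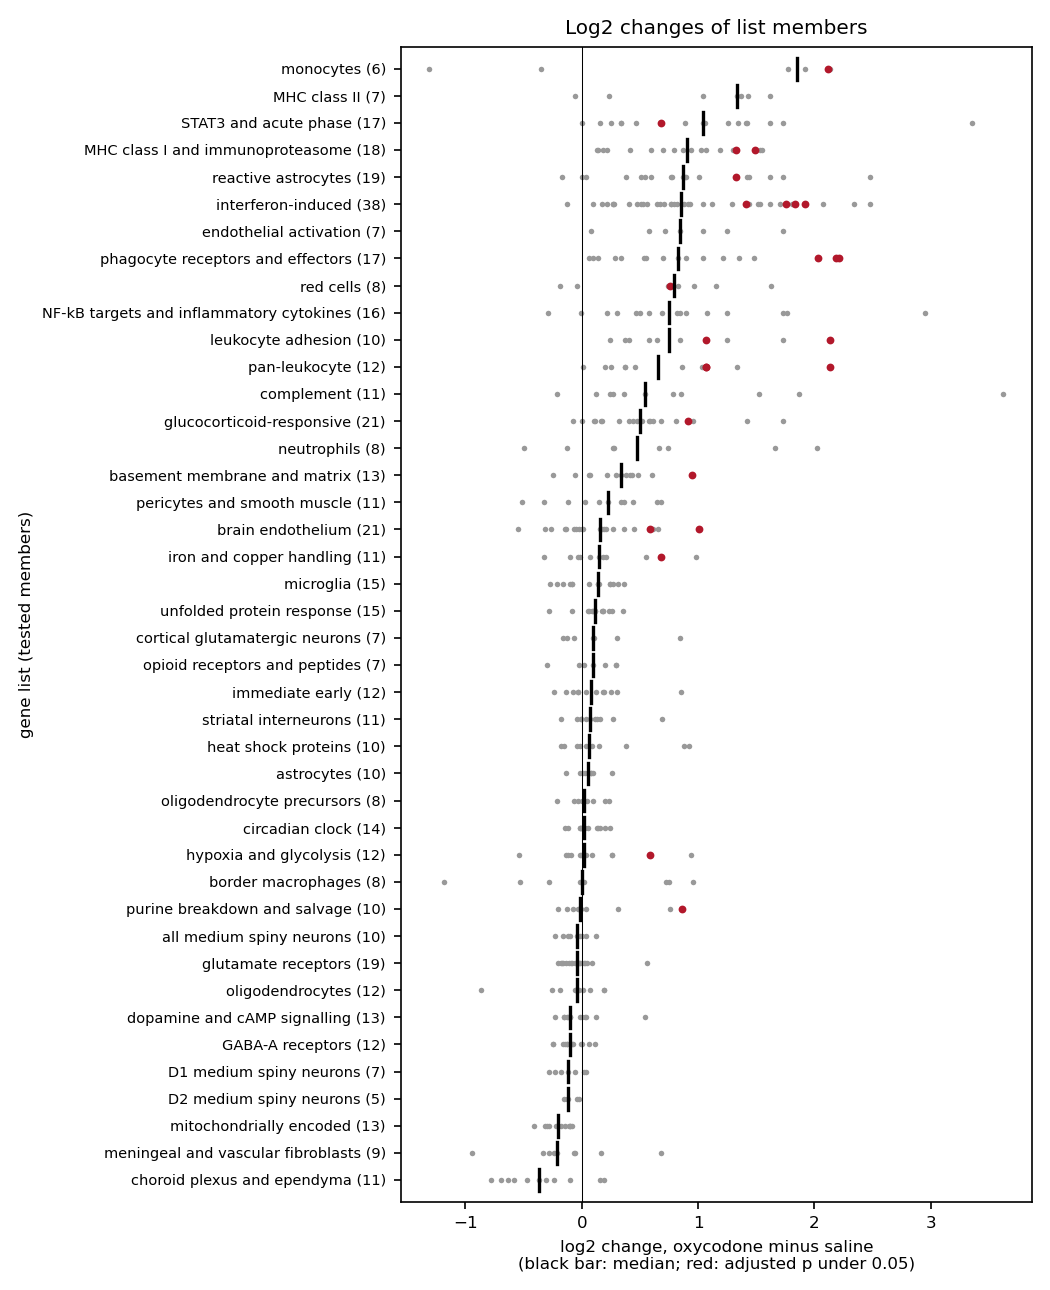
Log2 change, oxycodone minus saline, of each tested member (point) of each list with at least 5 tested members, sorted by the list median (black bar); red points have an adjusted p under 0.05. The interferon-induced and both MHC lists have medians between 0.85 and 1.33, and the medium spiny neuron, microglia, astrocyte and mitochondrial lists lie between -0.20 and 0.14.

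Ventral striatum was represented by 6 oxycodone and 6 saline libraries on the same schedule. The labels do not say whether their mice also gave dorsal libraries, so the 2 regions may not be independent. No gene passed the ventral test (edgeR, 0 of 14116, 0%, with 1289 at an unadjusted p under 0.05). All 29 genes that rose in dorsal striatum had a ventral change above 0, as did 49.1% of all ventral genes tested, and 12 of the 29 had an unadjusted ventral p under 0.05. With all 12 ventral libraries the ventral change was smaller than the dorsal one for all 29, with a median of 0.68 against 1.26, where the 29 had been chosen on their dorsal change. Fpr2 (2.17 in ventral striatum), Plac8 (1.95), Tmem252 (1.56) and Tgtp1 (1.55) had the largest ventral changes of the 29. The first 2 were scarce there. Fpr2 was at a mean of 0.42 CPM with saline and 2.00 CPM with oxycodone, and Plac8 at 0.72 and 2.90 CPM. Ube2l6 had 0.08 in ventral striatum against 1.92, the widest gap, but 0.61 when the sixth ventral library of each group was left out. Without those 2 libraries 26 of the 29 could be tested, all 26 were above 0, and their median was 0.64. Fpr2, Plac8 and Fcgr4 could not be tested there. No ventral gene passed (edgeR, 1464 at an unadjusted p under 0.05). The libraries of the 2 regions were unlike in other ways. Mitochondrial counts were 2.93% to 4.12% of dorsal and 5.98% to 9.25% of ventral libraries. Of counts between 1 and 49, 67.3% to 75.6% were even in dorsal and 43.6% to 45.2% in ventral libraries. What this does to a comparison of regions was not tested. The difference in oxycodone effect between regions was tested in 1 model of all 22 libraries: no gene passed (edgeR, 0 of 14938; 674 at an unadjusted p under 0.05; smallest adjusted p = 0.981). Of the 29 genes, 2 had an unadjusted p under 0.05 for the difference, Ube2l6 (0.0131) and Ehd1 (0.0418). Sh3rf2 was at 0.78 in ventral striatum and -0.46 in dorsal striatum, with a difference at an unadjusted p of 0.0509. Without both sixth libraries its ventral change was 0.17, so the size of that contrast rests on them.

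**Figure D5:**
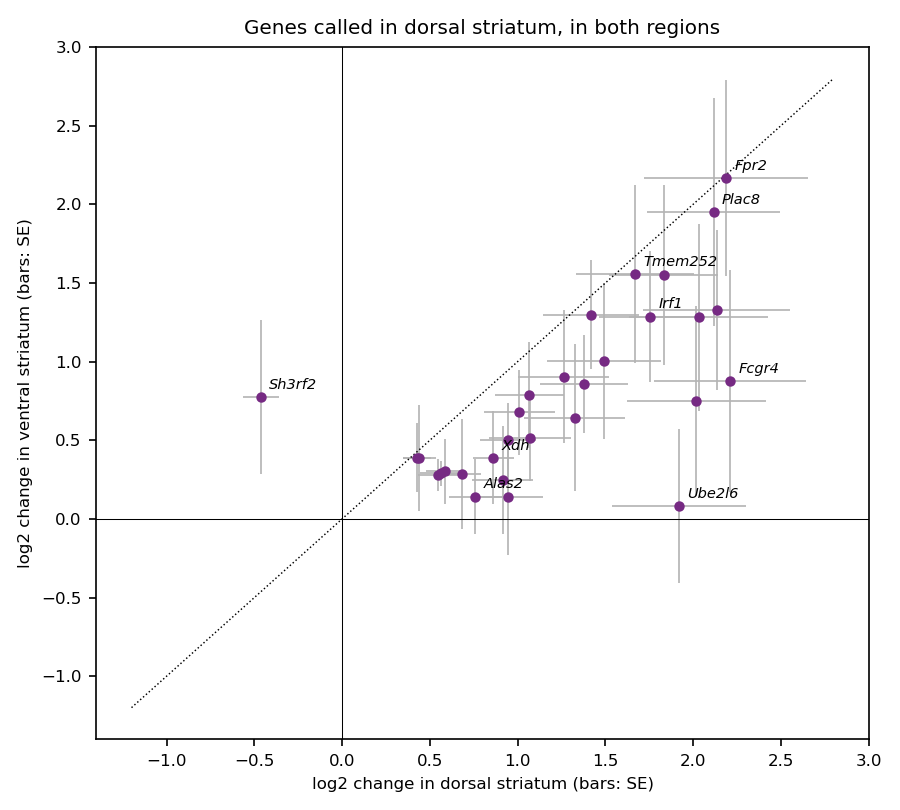
Log2 change in ventral against dorsal striatum for the 30 called genes, with SE bars and the line of equal change (dotted). All 29 genes higher in dorsal striatum lie above 0 on the ventral axis and below the dotted line, and Sh3rf2 is the 1 gene of opposite sign.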

How the data were processed

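The deposited table holds raw read counts per gene, as the authors made them, for 23119 genes. Per the submitters' processing notes, CASAVA 1.8.2, STAR 2.3 and featureCounts were used, with the builds mm10, GRCm38 and mm9 named without a role. The strand setting and treatment of read mates are not given in the sources used here. Of counts between 1 and 49, 67.3% to 75.6% were even in dorsal libraries and 43.6% to 45.2% in ventral libraries. Dividing dorsal counts by 2 was an alternative. Total RNA was extracted from bulk tissue with a column kit, and a stranded kit with ribosomal RNA removal made the libraries, per the labels. Symbols came from GENCODE M21 for 22205 genes (96%). Pairs of libraries within a group differed by at least 10.89 in chi-square per degree of freedom, so none was 1 library deposited again; this does not show that they come from separate mice. Each counted as 1 sample, and summing the pairs of shared title number was an alternative.

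Genes kept by filterByExpr were tested with edgeR 4.0.16 (R 4.3.3; TMM scaling, quasi-likelihood, robust), adjusted by Benjamini-Hochberg over all genes tested, with a threshold of 0.05. All tests are two-sided. CPM values are TMM-scaled, and list levels use a prior count of 2. The test was first checked on simulated data. Alternatives used DESeq2 1.42.0, limma 3.58.1 and sva 3.50.0. Named genes are those past the threshold with a symbol, the 6 next by p in each direction, the 3 lowest in p on every list, the first 3 of each cell list and 8 fixed receptor, peptide and activity genes; unnamed models are counted only, and 1 of the 30 genes past the threshold is not reported here. Other list members named with values were chosen after their values were seen. The comparison, its members and the 45 lists were chosen with earlier results of these data known. Promoters are RefSeq, GRCm38.p6.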

Additional observations from a re-analysis of the deposited data

Results flagged for a closer look

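Several values within a group of 5 stood far from the rest, by Dixon's criterion (a gap to the nearest library over 0.71 of the group's range). Of 58 groups of called-gene values 6 met it and of 84 groups of list levels 11 did, where chance alone gives about 5%; 11 of the 17 were oxycodone replicate 5.

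In oxycodone replicate 5, Fcgr4 was at 17.89 CPM (next library 6.74), Alas2 at 97.94 CPM (61.33), Ly6a at 90.39 CPM (48.23) and Itgb2 at 42.83 CPM (21.91). The same library had list levels above the saline mean, on the log2 scale, of 1.61 for complement, 1.92 for NF-kB targets and inflammatory cytokines, 1.75 for STAT3 and acute phase, 1.77 for phagocyte receptors, 1.78 for leukocyte adhesion, 1.92 for reactive astrocytes and 0.36 for brain endothelium. The next highest library was at 0.59 to 0.82 for these lists, and at 0.14 for brain endothelium.

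Other libraries were apart in single values. Saline replicate 3 was high for Pdzd2 (311.9 CPM, next 268) and for purine genes (level 0.0881), saline replicate 4 was high for Fcgr4 (3.02 CPM, next 1.64) and low for medium spiny neuron markers (-0.13), saline replicate 2 was low for interferon-induced genes (-0.13), and oxycodone replicate 2 was high for glutamate receptors (0.0860).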

How the results depend on the processing

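The 30 calls (29 higher, 1 lower) depended on method and library. No paired analysis was possible because the title numbers of the oxycodone and saline libraries share none. Leaving out each library gave 1 to 63 calls, 1 to 60 of them higher and 0 to 3 lower. Without robust estimation 58 genes passed (56 higher, 2 lower), at a threshold of 0.1 57 (55 and 2) and with DESeq2 86 (79 and 7, including all 30). With limma-voom weights 15 passed (15 and 0), 11 of them among the 30. The libraries whose titles have the suffix P gave 1 call (1 and 0), which was among the 30. The others gave 17 (17 and 0), 3 of them among the 30. The design text sets apart oxycodone replicates 4 and 5 and saline replicate 4. Without these libraries 6 genes passed (6 and 0), 1 of them among the 30. Xdh (adjusted p = 0.0563), Cp (0.162) and Tgm2 (0.246, edgeR) did not pass there. All 22 libraries in 1 fit gave 5 (2 higher, 3 lower), 1 of them among the 30. The lower count was 0 with upper quartile scaling, with library totals and with a mean of at least 1 CPM, and 2 with at least 1 count or 1 surrogate variable. Haemoglobin level as a covariate, chosen after seeing the data, gave 2 calls (0 higher, 2 lower), none among the 30; halved dorsal counts, also chosen after seeing the data, gave 34. Summing the pairs of shared title number gave 40, without Slc2a1, Ube2l6, Tmem252, Gpr83, Psmb8 and Ly6a. The cause of these differences was not tested. Of 88 counts under alternatives 55 moved by over 1.5 times. The called genes lost their call in 325 of 840 fits and changed sign in none. Of 1260 list medians 64 changed sign, in 18 of 45 lists. Cortical glutamatergic neurons (9), border macrophages (8), hypoxia, platelets and purine breakdown (7 each) changed the most. The interferon-induced, MHC, STAT3, phagocyte and pan-leukocyte lists kept their sign, but not their size. The MHC class II median was 0.0027 with the haemoglobin covariate against 1.33 in the main fit. With the haemoglobin covariate the lists that changed sign included complement (-0.0022), red cells (-0.02), microglia (-0.0022), cortical glutamatergic neurons (-0.30) and border macrophages (-0.24). Hypoxia (-0.08), immediate early genes (-0.06), oligodendrocytes (0.03), all medium spiny neurons (0.0095), GABA-A receptors (0.01) and purine breakdown (0.08) also did. No gene passed the test of the difference between regions under any of 5 settings.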
